A study of Mus musculus with 6 samples.

Results

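This section describes 10 genes that mark mast cells and basophils, *Mcpt4*, *Cma1*, *Mcpt2*, *Tpsab1*, *Tpsb2*, *Cpa3*, *Kit*, *Fcer1a*, *Ms4a2* and *Hdc*, in tumours of UV2237M, a mouse fibrosarcoma line. They were taken by gene symbol from a list, and all 10 were found among the 23183 symbols measured. The treated group was 3 wild-type (WT) tumours given gold nanoclusters (GNC) on day 1 and day 7 with near-infrared (NIR) irradiation, and the untreated group was 3 WT tumours given no treatment. Gold nanoclusters can turn absorbed light into heat, but the values used here hold no measure of heating. The comparison asks how tumour RNA differed after nanoclusters with NIR irradiation. The sources used here do not give host strain, sex or age, or whether each tumour came from its own animal. The p-values therefore measure the spread between these samples, which may be technical. The NIR irradiation came with the nanoclusters, and the effect of either alone cannot be told apart.

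Mast cells are tissue-resident immune cells, dense in skin and other connective tissue, whose granules are packed with proteases and histamine. Stem cell factor acting on the receptor tyrosine kinase Kit keeps them alive, and antigen that cross-links IgE on the high-affinity IgE receptor makes them release their granules. Mouse mast cells of connective tissue are known for the chymases Mcpt4 and Cma1, the tryptases Tpsb2 and Tpsab1 and carboxypeptidase A3, while Mcpt2 is best known from mast cells of mucosa. Basophils are blood granulocytes that share the IgE receptor and histamine with mast cells but carry proteases of their own, among them Mcpt8 and Prss34.

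The members' promoters are shown because factors of the GATA family are known regulators of mast cell genes. The windows run from 250 bases before to 50 bases after the gene start, are taken from RefSeq (GRCm38.p6, the mm10 assembly), and are written 5′ to 3′ on the strand of the gene. Of the members, 7 had an entry, 3 of them proteases. Capitals mark a GATA word on either strand, the letters GATA with A or T before them and A or G after them. *Mcpt4* lies at chr14:56062261-56062560, *Cma1* at chr14:55944626-55944925 and *Cpa3* at chr3:20242132-20242431, each on the minus strand.
Mcpt4: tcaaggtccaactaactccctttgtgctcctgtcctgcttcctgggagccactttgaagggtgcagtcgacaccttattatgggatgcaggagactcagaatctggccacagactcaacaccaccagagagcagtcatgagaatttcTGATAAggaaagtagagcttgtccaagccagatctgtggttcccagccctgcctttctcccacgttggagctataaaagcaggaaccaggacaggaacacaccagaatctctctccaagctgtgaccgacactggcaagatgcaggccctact
Cma1: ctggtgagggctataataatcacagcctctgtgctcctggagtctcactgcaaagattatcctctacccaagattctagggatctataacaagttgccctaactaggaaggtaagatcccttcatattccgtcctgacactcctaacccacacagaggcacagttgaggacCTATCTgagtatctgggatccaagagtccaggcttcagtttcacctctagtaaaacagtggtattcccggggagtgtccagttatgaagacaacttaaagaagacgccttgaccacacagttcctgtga
Cpa3: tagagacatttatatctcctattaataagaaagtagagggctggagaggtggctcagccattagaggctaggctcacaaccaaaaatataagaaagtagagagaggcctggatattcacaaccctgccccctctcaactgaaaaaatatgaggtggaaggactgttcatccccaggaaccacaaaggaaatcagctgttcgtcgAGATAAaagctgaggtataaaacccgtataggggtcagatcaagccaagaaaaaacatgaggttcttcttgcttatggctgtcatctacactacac
Each of these windows holds 1 GATA word, whose first base lies at -103 from the start in *Mcpt4*, at -79 in *Cma1* (on the opposite strand) and at -46 in *Cpa3*. A GATA word was found in 6 of the 7 members' windows, *Kit* being the exception, and in 29.8% of all 32851 windows of this length in the table. *Mcpt4* and *Cpa3* also have the word TATAAA on their own strand, at -32 and -31. Further matches lie at -242 in *Cpa3*, on the opposite strand, and at -125 in *Fcer1a*. On either strand and at any position, TATAAA was found in 13.6% of all windows. These are letter matches and say nothing of which factor was bound in the tumours.

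Depth was between 4680295 and 8019294 counts per library. The members together held 239, 264 and 233 counts in treated tumours and 686, 676 and 517 counts in untreated tumours. Levels are given as CPM, counts scaled to the size of the library, with TMM scaling, where 1 count is worth 0.123 to 0.223 CPM. Untreated 2 stood apart from the other libraries, with a mean distance to them of 1.21 on the log2 CPM scale, against 0.605 to 0.721 for the others. Keratinocyte RNA also differed between libraries. *Krt5*, a keratin of the basal epidermis, had 4.47, 0 and 18.9 CPM in treated 1, 2 and 3, against 238.2, 77.2 and 0 CPM in untreated 1, 2 and 3. Its partner *Krt14* had 8.94, 0 and 24.2 CPM in treated tumours, against 232.8, 344.1 and 0 CPM in untreated tumours.

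All 6 proteases were lower in each treated tumour than in each untreated one, while the receptor gene *Kit* overlapped between the groups and *Hdc* averaged higher in treated tumours. The summed CPM of the 6 proteases was 27.5, 24.1 and 11.7 in treated 1, 2 and 3, against 93.3, 143.5 and 47.5 in untreated 1, 2 and 3. That is 21.1 ± 8.33 CPM in treated and 94.8 ± 48.0 CPM in untreated tumours (n = 3 each, SD), a ratio of 0.223. Over all 10 genes the sums were 35.9 ± 6.88 CPM in treated and 106.0 ± 43.8 CPM in untreated tumours, a ratio of 0.338. In bulk tumour RNA, fewer mast cells and less RNA per mast cell cannot be told apart. Of the members, 8 of 10 had enough counts to be tested, and edgeR's quasi-likelihood test with Benjamini-Hochberg adjustment over 12517 genes called 0 of the 8. It called 0% of all tested genes lower and 0% higher. At an unadjusted p under 0.05 it found 6 of the 8 lower, the 6 proteases, and none higher, where 4.85% of all tested genes were lower and 3.32% higher. The 6 proteases were also the members whose treated values all lay below the untreated ones, as did 10.2% of all tested genes. DESeq2 called 3 members lower, *Mcpt2*, *Tpsab1* and *Mcpt4*, and 0 higher, where it called 0.312% of all tested genes lower and 0.144% higher.

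**Figure D1:**
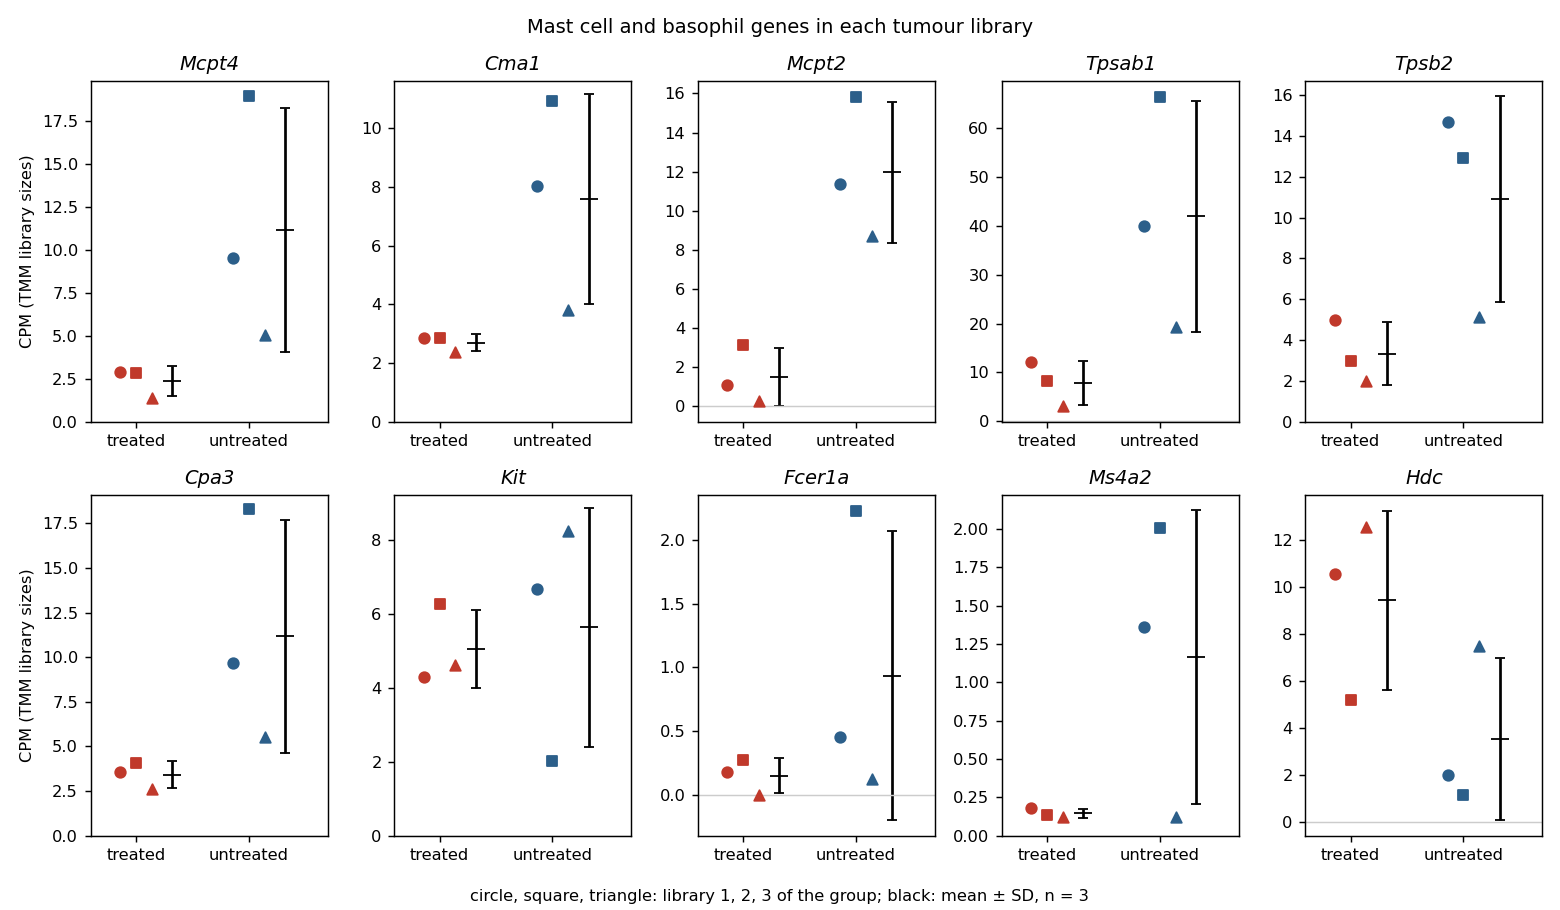
CPM of the 10 genes (vertical axes, each on its own scale), with the 3 treated libraries left of the 3 untreated ones and the mean ± SD in black. The 6 proteases lie lower in each treated library than in each untreated one, and *Kit*, *Fcer1a*, *Ms4a2* and *Hdc* overlap.

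Chymases are serine proteases that cut after aromatic residues, and their genes form a cluster on chromosome 14. *Mcpt4* (ENSMUSG00000061068, chromosome 14, 56059629 to 56062313, mm10), the main connective tissue chymase of the mouse, had 2.86, 2.86 and 1.37 CPM in treated 1, 2 and 3, against 9.53, 19.0 and 5.03 CPM in untreated 1, 2 and 3. Its log2 fold change was -2.23 ± 0.57 (SE), with an adjusted p of 0.592 by edgeR's quasi-likelihood test. The untreated values themselves spread widely, and untreated 3 lay nearest to the treated group. *Cma1* (chromosome 14, 55941451 to 55944675), also called Mcpt5, is an elastin-cutting member of the chymase family in mice. It had 2.86, 2.86 and 2.36 CPM in treated tumours, against 8.02, 10.9 and 3.80 CPM in untreated tumours. The treated values were close together, and the log2 fold change was -1.47 ± 0.44.

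*Mcpt2* (chromosome 14, 56042041 to 56044642) is the protease known from mucosal mast cells. It had 1.07, 3.13 and 0.249 CPM in treated 1, 2 and 3, from 6, 23 and 2 counts, against 11.3, 15.8 and 8.71 CPM in untreated 1, 2 and 3, from 75, 71 and 71 counts. Its log2 fold change of -2.99 ± 0.72 was the lowest among the tested members, with an adjusted p of 0.592 by edgeR and 0.0187 by DESeq2. Over the alternatives tried its adjusted p ran from 0.0187 to 0.966. Without treated 2, the treated tumour with the most of it, the log2 fold change was -4.22. Its mucosal relative *Mcpt1* was near the limit of detection and was not tested, with 0, 0.136 and 0.249 CPM in treated tumours and 0.756, 0.669 and 0.491 CPM in untreated tumours.

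Tryptases are trypsin-like proteases stored with heparin in mast cell granules. *Tpsab1* (chromosome 17, 25343245 to 25345562), also called Mcpt7, had the highest level per kilobase of exon among the members in each library except treated 3, where *Cma1* had 2.17 CPM per kb and *Tpsab1* 1.48. Its CPM were 12.2, 8.16 and 3.11 in treated 1, 2 and 3, against 40.1, 66.5 and 19.3 in untreated 1, 2 and 3, with a log2 fold change of -2.43 ± 0.61. The edgeR adjusted p was 0.592 and the DESeq2 one 0.0248, and over the alternatives it ran from 0.0148 to 0.966. GENCODE M21 lists the gene as protein-coding and RefSeq, for the strain C57BL/6J, as a transcribed pseudogene. *Tpsb2* (chromosome 17, 25366305 to 25369098), also called Mcpt6, had 5.01, 2.99 and 1.99 CPM in treated tumours, against 14.7, 12.9 and 5.15 CPM in untreated tumours. Treated 1 and untreated 3 were nearly level, and the log2 fold change was -1.72 ± 0.52.

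*Cpa3* (chromosome 3, 20215620 to 20242181) codes for carboxypeptidase A3, which trims amino acids from the C-terminal ends of peptides and is stored in the same granules. It had 3.58, 4.08 and 2.61 CPM in treated 1, 2 and 3, against 9.68, 18.3 and 5.52 CPM in untreated 1, 2 and 3. The groups did not overlap, and the log2 fold change was -1.69 ± 0.49. For *Cma1*, *Tpsb2* and *Cpa3* the edgeR adjusted p was 0.592, and the DESeq2 adjusted p was 0.195, 0.141 and 0.127. For *Mcpt4* the DESeq2 adjusted p was 0.0491, and over the alternatives it ran from 0.0491 to 0.966.

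The makeup of the protease RNA was described by each gene's share of the summed CPM of the 6, not scaled for length. *Tpsab1* gave 34.9% ± 8.82 of it in treated and 43.3% ± 2.90 in untreated tumours (n = 3 each, SD). *Mcpt4* gave 11.3% ± 0.809 in treated and 11.3% ± 1.64 in untreated tumours, so its share was nearly the same. *Mcpt2* gave 3.90%, 13.0% and 2.13% in treated 1, 2 and 3, against 12.2%, 11.0% and 18.3% in untreated 1, 2 and 3, which overlap through treated 2. *Cma1* gave 10.4%, 11.9% and 20.2% in treated tumours, against 8.59%, 7.62% and 8.01% in untreated tumours, without overlap. Shares sum to a fixed total and so are not independent, and they were not tested.

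Of the 3 receptor genes among the members, 1 had enough counts to be tested. *Kit* (chromosome 5, 75574916 to 75656722), the stem cell factor receptor, had 4.29, 6.26 and 4.60 CPM in treated 1, 2 and 3, against 6.66, 2.01 and 8.22 CPM in untreated 1, 2 and 3. Untreated 2 was its lowest library, whereas the same library was highest for 5 of the 6 proteases. Its log2 fold change was -0.18 ± 0.50, with an adjusted p of 0.906 by edgeR's quasi-likelihood test, and it was 0.20 without untreated 3. Melanocytes also express *Kit*. The 6 melanocyte markers summed to 1.25, 1.63 and 1.62 CPM in treated tumours and 3.78, 1.79 and 0.736 CPM in untreated tumours, with *Dct* at 0 in 5 of 6 libraries.

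The subunits of the IgE receptor were near the limit of detection and were not tested. *Fcer1a* (chromosome 1, 173221284 to 173227214), the chain that binds IgE, had 1, 2 and 0 counts in treated 1, 2 and 3, against 3, 10 and 1 counts in untreated 1, 2 and 3. The 0 in treated 3 allows up to 0.373 CPM, from 3 counts and for counting error only. *Ms4a2* (chromosome 19, 11615523 to 11623719), the beta chain that amplifies the signal, had 1, 1 and 1 counts in treated tumours, against 9, 9 and 1 counts in untreated tumours. For both genes untreated 1 and 2 had more counts than any treated tumour, and untreated 3 had 1 count. With no filter on low counts the log2 fold changes were -2.41 ± 1.29 for *Fcer1a* and -2.79 ± 1.08 for *Ms4a2*, with adjusted p of 0.666 and 0.623 by edgeR.

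*Hdc* (chromosome 2, 126593667 to 126619299) codes for histidine decarboxylase, the enzyme that makes histamine. It had 10.5, 5.17 and 12.6 CPM in treated 1, 2 and 3, against 1.97, 1.12 and 7.48 CPM in untreated 1, 2 and 3. Untreated 3 lay above treated 2, so the groups overlapped, and the log2 fold change was 1.36 ± 0.69 with an adjusted p of 0.592 by edgeR's quasi-likelihood test. Without untreated 3 it was 2.57, with an adjusted p of 0.22 by the same test. *Hdc* was thus the tested member with a fold change above 0, opposite to the proteases. Neutrophils and other myeloid cells also make histidine decarboxylase. The 7 neutrophil markers measured summed to 85.5, 36.0 and 81.9 CPM in treated 1, 2 and 3, against 13.6, 19.6 and 47.0 CPM in untreated 1, 2 and 3. All 5 tested markers had a fold change above 0 and 0 passed the test, with *S100a9*, a granule protein of neutrophils, at a log2 fold change of 2.02 ± 0.92 and *Cxcr2*, their chemokine receptor, at 0.79 ± 0.34. *Camp* was at 0 in each library but untreated 2. The part of neutrophil RNA in the *Hdc* values was not tested.

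**Figure D2:**
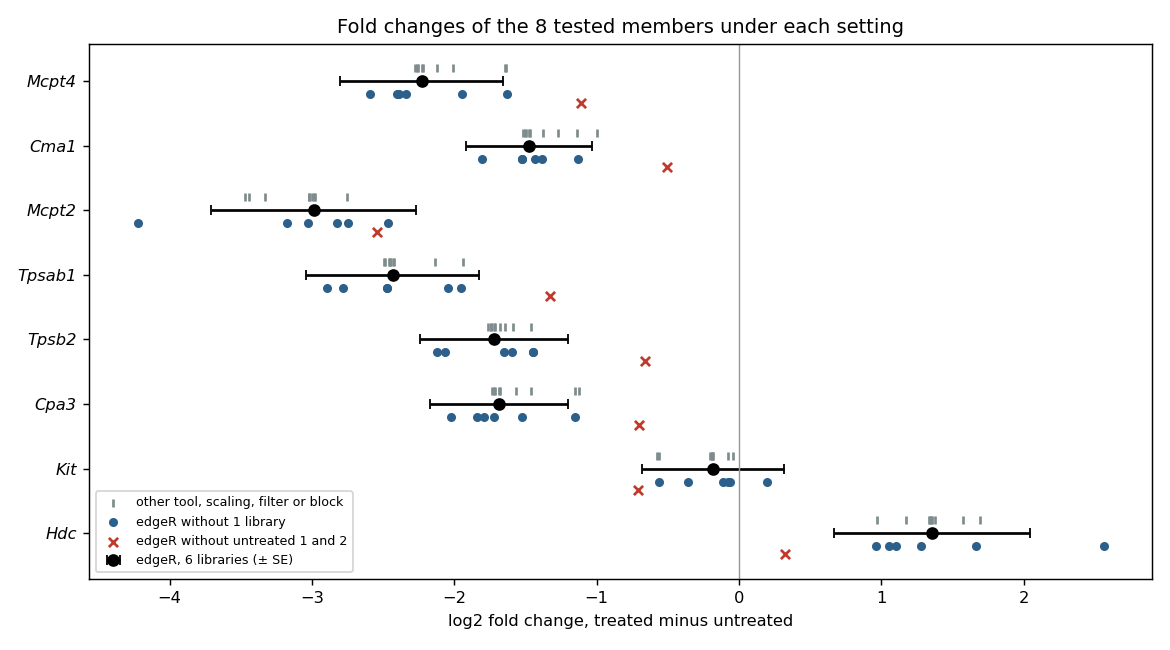
Log2 fold change, treated minus untreated, of the 8 tested members (horizontal axis), with the edgeR value ± SE in black and the values under the alternatives as bars, dots and crosses. The 6 proteases lie below 0 under each setting shown, a sign largely fixed beforehand by their lack of overlap between the groups. Apart from *Mcpt2*, each is nearest to 0 where untreated 1 and 2 are left out, and *Kit* crosses 0.

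Levels were compared between genes per kilobase of exon. In treated tumours *Tpsab1* had 3.73 ± 2.17 CPM per kb (SD, n = 3), followed by *Cma1* (2.47 ± 0.263), *Cpa3* (2.26 ± 0.492), *Mcpt4* (2.13 ± 0.777), *Tpsb2* (2.09 ± 0.964), *Hdc* (1.48 ± 0.598) and *Mcpt2* (1.40 ± 1.40). These steps lay within the larger SD of each pair, as did that to *Kit*. *Kit* (0.567 ± 0.119), *Fcer1a* (0.151 ± 0.139) and *Ms4a2* (0.0520 ± 0.0102) were lowest, and the step from *Kit* to *Fcer1a* was larger than either SD. In untreated tumours the order was *Tpsab1* (20.0 ± 11.3 CPM per kb), *Mcpt2* (11.3 ± 3.40), *Mcpt4* (10.1 ± 6.42), *Cpa3* (7.36 ± 4.30), *Cma1* (6.96 ± 3.29) and *Tpsb2* (6.85 ± 3.18). Neighbours among these 6 differed by less than the larger SD of each pair. *Fcer1a* (0.938 ± 1.14 CPM per kb), *Kit* (0.632 ± 0.363), *Hdc* (0.551 ± 0.541) and *Ms4a2* (0.414 ± 0.341) followed, again within their spread of each other, and the step down from *Tpsb2* to *Fcer1a* was larger than either SD. *Mcpt2* thus stood below *Hdc* in treated tumours and next to *Tpsab1* in untreated ones.

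The proteases are close relatives, and reads from shared sequence could be counted for either gene. Of the 50-base windows in the longest GENCODE M21 transcript, 5.48% in *Mcpt4* also occurred in another gene, the chymase relative *Cma2*, and 5.38% in *Cma1* occurred in the gene model *Gm48934*. *Mcpt2*, *Tpsab1*, *Tpsb2*, *Cpa3*, *Kit* and *Fcer1a* shared no such window with another gene, so the 2 tryptases could be told apart at this length. In *Ms4a2* the share was 2.69% and in *Hdc* it was 0.201%. In the annotation 9 of the 10 genes overlap no other gene, and *Cpa3* holds the microRNA gene *Mir7007* on its own strand.

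Keratinocyte RNA moved with part of the protease difference. The 11 keratinocyte markers measured summed to 24.9, 13.2 and 78.3 CPM in treated 1, 2 and 3, against 1405, 735.3 and 11.3 CPM in untreated 1, 2 and 3. Of 6 tested markers 0 passed edgeR's test and 6 had a fold change below 0. *Krt10*, a keratin of the upper epidermis, had a log2 fold change of -4.14 ± 1.31 and a DESeq2 adjusted p of 0.0213, and *Krt1*, its partner, had -6.45 ± 2.21. The libraries with the most protease RNA, untreated 1 and 2, were also those with the most keratin RNA. In treated 2 and untreated 3 *Krt5* and *Krt14* both had 0 counts. The protease sum was 24.1 CPM in treated 2 and 47.5 CPM in untreated 3. Both keratins are keratinocyte markers and say nothing of other tissue beside the tumour. Adipocyte markers, which had few counts, summed to 0 CPM in treated 2 and 1.59 CPM in untreated 3. Treated 3 had the highest keratin values among treated tumours and the lowest protease sum. It also had the most skeletal muscle RNA, with a marker sum of 346.8 CPM against 77.9 CPM or less in each other library. With untreated 1 and 2 left out, the 3 treated tumours and untreated 3 gave log2 fold changes of -2.55 ± 0.86 for *Mcpt2* and -1.33 ± 0.56 for *Tpsab1*, and of -1.11 ± 0.59 for *Mcpt4*. The values were -0.51 ± 0.53 for *Cma1*, -0.66 ± 0.59 for *Tpsb2* and -0.70 ± 0.48 for *Cpa3*. In that edgeR fit 2 of the 8 members had an unadjusted p under 0.05, *Mcpt2* and *Tpsab1*, where 2.08% of all tested genes were lower at that level, and 0 passed after adjustment, where 0.00756% of all tested genes did. That fit assumes that untreated 3 varies like the treated tumours, and it was chosen after the data were seen. How much of the protease RNA came with skin in the sample was not tested.

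**Figure D3:**
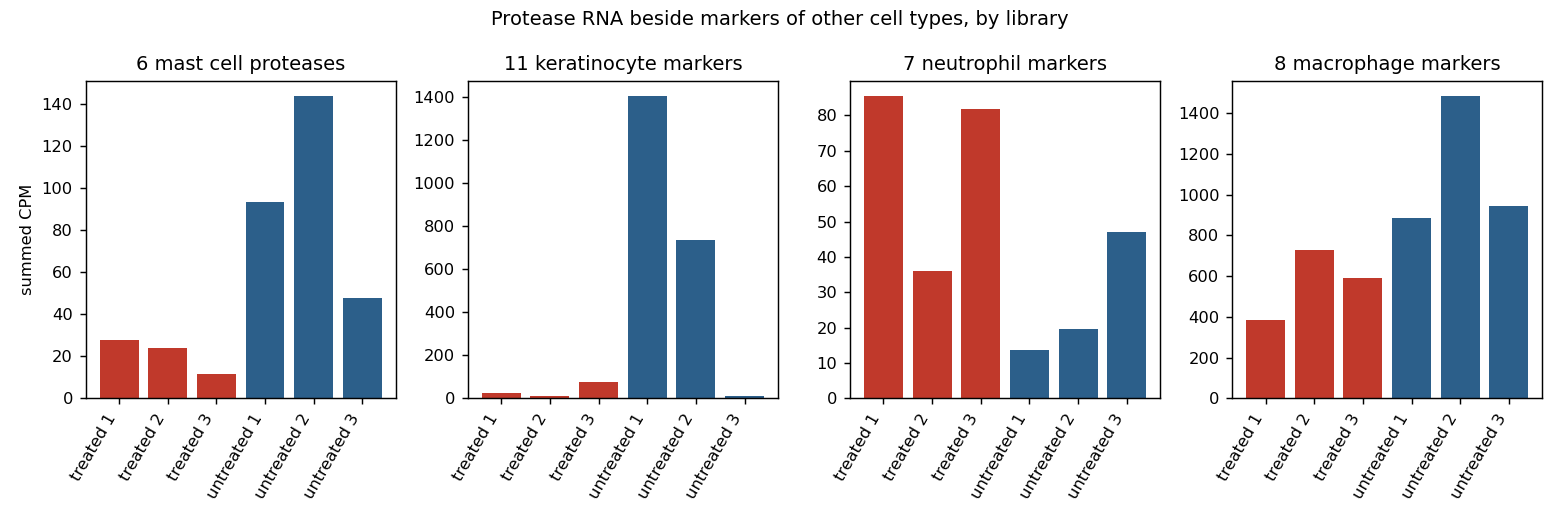
Summed CPM (vertical axes from 0) of the 6 proteases and of markers of keratinocytes, neutrophils and macrophages in each library, treated libraries left of untreated ones. Untreated 1 and 2 have 93.3 and 143.5 CPM of protease RNA beside 1405 and 735.3 CPM of keratinocyte markers, the most of both. Untreated 3 has 47.5 CPM of protease RNA beside 11.3 CPM of keratinocyte markers, and treated 3 has 11.7 CPM beside 78.3 CPM.

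GC-rich genes were low in untreated 2. Over 5 bins of tested genes ordered by GC content, the median difference from the mean of the other 5 libraries was -0.76 log2 in the top bin and 0.76 in the bottom bin. The proteases lay above that mean in this library across that range. The other 5 libraries include the treated ones, though, where each protease was lower, so these differences hold the group difference too. Within the untreated group, *Tpsb2* had 12.9 CPM in untreated 2 and 14.7 CPM in untreated 1. The part of GC content in the protease values was not tested. *Tpsb2*, with 56.9% GC in its longest transcript, lay 1.35 above the mean of the others, *Tpsab1* (54.5% GC) 2.41 above, and *Cpa3* (41.3% GC) 1.87 above. *Kit* and *Hdc*, with 48.5% and 48.3% GC, lay at -1.34 and -2.10. Without untreated 2 the proteases' log2 fold changes ran from -2.74 for *Mcpt2* to -1.13 for *Cma1*, with an unadjusted p under 0.05 for each of the 6 (8.85% of all tested genes were lower at that level) and 0 called by edgeR (0% of all tested genes). DESeq2 on these 5 libraries called *Mcpt2* (adjusted p 0.0209) and *Tpsab1* (0.0148), where it called 1.23% of all tested genes lower, and *Mcpt4* had 0.0879.

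Macrophage markers, which belong to another resident immune cell of connective tissue, summed to 385.1, 730.2 and 593.4 CPM in treated 1, 2 and 3, against 886.7, 1484 and 946.6 CPM in untreated 1, 2 and 3. The sums did not overlap, and like the proteases they were highest in untreated 2. Of the 8 markers 6 had a fold change below 0, with an unadjusted p under 0.05 in 5 cases and an adjusted one in 0 by edgeR's test, where 4.85% of all tested genes were lower at the unadjusted level. The complement gene *C1qc* had a log2 fold change of -1.43 ± 0.37 and *C1qb* of -1.30 ± 0.36, while *Cd163*, a scavenger receptor, had 0.91 ± 0.67 and *Cd68* had 0.05 ± 0.31. Endothelial markers summed to 112.1 to 178.3 CPM in treated and 80.6 to 141.9 CPM in untreated tumours, and Schwann cell markers to 18.4 to 30.5 CPM in treated and 10.7 to 28.1 CPM in untreated tumours. Adipocyte markers summed to 0.358, 0 and 0.124 CPM in treated 1, 2 and 3. In untreated 1, 2 and 3 they summed to 4.69, 5.80 and 1.59 CPM. The adipocyte sums did not overlap either and were also highest in untreated 2. They rest on few counts, and 0 of the 6 markers were tested. Skeletal muscle markers summed to 3.67 to 346.8 CPM in treated and 16.1 to 77.9 CPM in untreated tumours. The fibroblast and fibrosarcoma markers, genes of the labelled cell type, summed to 19190 to 24762 CPM in treated and 19994 to 26576 CPM in untreated tumours, most of it from the collagen gene *Col3a1* (12570 to 18654 CPM in treated and 18747 to 22446 CPM in untreated tumours). Both type I collagen genes were picked out here with their values known. *Col1a1* stood at 1975, 3267 and 4255 CPM in treated 1, 2 and 3, against 2209, 59.4 and 2494 CPM in untreated 1, 2 and 3. *Col1a2* stood at 643.1, 1710 and 2240 CPM in treated tumours, against 326.0, 48.0 and 874.0 CPM in untreated tumours. Untreated 2, where the protease sum was highest, was thus far below the other libraries for both genes. The part of these cells in the protease values was not tested.

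The proteases that mark basophils were at or near 0. *Mcpt8* had 2 counts in treated 3 and 0 in each other library, and *Prss34* had 0 in each library, as had *Mcpt9*, a mast cell protease of the same chromosome 14 cluster. Eosinophil markers summed to at most 0.995 CPM in a treated and 0.368 CPM in an untreated library, with *Prg2*, *Ear1* and *Ear6* at 0 in each. *Mrgprb2*, the receptor through which peptides activate connective tissue mast cells in the mouse, was named after its values were seen and was too low to be tested. It had 0, 0.136 and 0.124 CPM in treated tumours and 0.908, 1.34 and 0.613 CPM in untreated tumours. Its relative *Mrgprb1*, named likewise, had 0.536, 0.408 and 0.249 CPM in treated tumours and 2.87, 5.13 and 0.613 CPM in untreated tumours. *Mrgprb1* was not tested either. For both genes each treated value lay below each untreated one. Among tested genes that share was 10.2%, but it was not computed for genes too low to be tested. In *Mrgprb1* the lack of overlap rests on 3 counts in treated 1 against 5 in untreated 3. The other mast cell and basophil receptors too low to be tested, among them *Adora3*, *Cd200r3* and *Siglecf*, overlapped between the groups.

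Other genes of mast cell biology were read from 7 lists holding 73 genes, of which 47 were tested. edgeR called 0 of the 47 in either direction, beside 0% of all tested genes. The tested members' median log2 fold change was -1.70, against -0.001 over all tested genes. Of the 14 granule and mediator genes, all tested, 13 had a fold change below 0 and the median was -0.39. Over all 12517 tested genes, 6268 had a fold change below 0. *Rab27b*, a small GTPase of granule release, had 6.61, 6.39 and 7.34 CPM in treated 1, 2 and 3, against 10.9, 24.3 and 11.7 CPM in untreated 1, 2 and 3, with a log2 fold change of -1.19 ± 0.37. *Hpgds*, the synthase of prostaglandin D2, had 5.18, 11.8 and 6.96 CPM in treated tumours, against 16.8, 14.1 and 13.5 CPM in untreated tumours. In these 2 of the 14 each treated value lay below each untreated one, as it did in 10.2% of all tested genes. *Srgn*, the core protein of granule proteoglycans, lay the other way with a log2 fold change of 0.59 ± 0.44, with 12.6 CPM in untreated 1 and 33.2 CPM or more in each other library.

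Of 16 other receptors 8 were tested, 4 on each side of 0. *Itgb7*, an integrin chain used for homing to mucosa by mast cell progenitors and lymphocytes, had 88.0, 65.2 and 123.8 CPM in treated 1, 2 and 3, against 31.8, 19.4 and 43.3 CPM in untreated 1, 2 and 3. Its log2 fold change was 1.55 ± 0.37, with an adjusted p of 0.592 by edgeR and 0.0353 by DESeq2. *Cd33*, an inhibitory lectin of myeloid cells, had 10.5, 10.6 and 6.59 CPM in treated tumours, against 22.5, 21.2 and 18.0 CPM in untreated tumours, with a log2 fold change of -1.16 ± 0.27 and adjusted p of 0.592 by edgeR and 0.0491 by DESeq2. The signalling genes of the IgE receptor, 10 of 12 tested, had a median log2 fold change of -0.13 with 7 below 0. Its gamma chain *Fcer1g*, shared with other Fc receptors, had -0.36 ± 0.21 and the adaptor *Lat2* had -0.68 ± 0.40. The kinases *Fyn* and *Syk* lay the other way, at 0.47 ± 0.32 and 0.53 ± 0.44.

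Transcription factors of the lineage, 10 of 11 tested, were split 5 to 5 around a median of -0.02. *Cebpa*, which favours the basophil over the mast cell fate, had 6.08, 15.5 and 11.6 CPM in treated 1, 2 and 3, against 20.6, 42.2 and 15.1 CPM in untreated 1, 2 and 3, which overlapped. Its log2 fold change was -1.21 ± 0.48. *Mitf*, a factor that drives mast cell and melanocyte genes, had a log2 fold change of -0.36 ± 0.21. Each treated value (15.4, 20.7 and 18.5 CPM) lay below each untreated one (22.1, 24.5 and 23.3 CPM), as in 10.2% of all tested genes. *Zfpm1*, a cofactor of GATA proteins, and *Runx1* lay at 0.96 ± 0.66 and 0.77 ± 0.55, both with untreated 2 as their lowest library.

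Of 10 ligands and growth factors 5 were tested, and the other 5, *Il3*, *Il4*, *Il9*, *Il13* and *Il25*, had 0 counts in each library. *Tslp*, an epithelial cytokine that acts on mast cells, had 1.61, 2.18 and 1.49 CPM in treated 1, 2 and 3, against 4.99, 11.8 and 3.68 CPM in untreated 1, 2 and 3, with a log2 fold change of -1.92 ± 0.53. *Il33*, an alarm cytokine for mast cells, lay the other way with a log2 fold change of 1.85 ± 0.62, and *Kitl*, the ligand of Kit, had -0.08 ± 0.29. None of the 3 histamine receptors was tested, since their sum was 0.223 to 1.50 CPM over the 6 libraries.

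**Figure D4:**
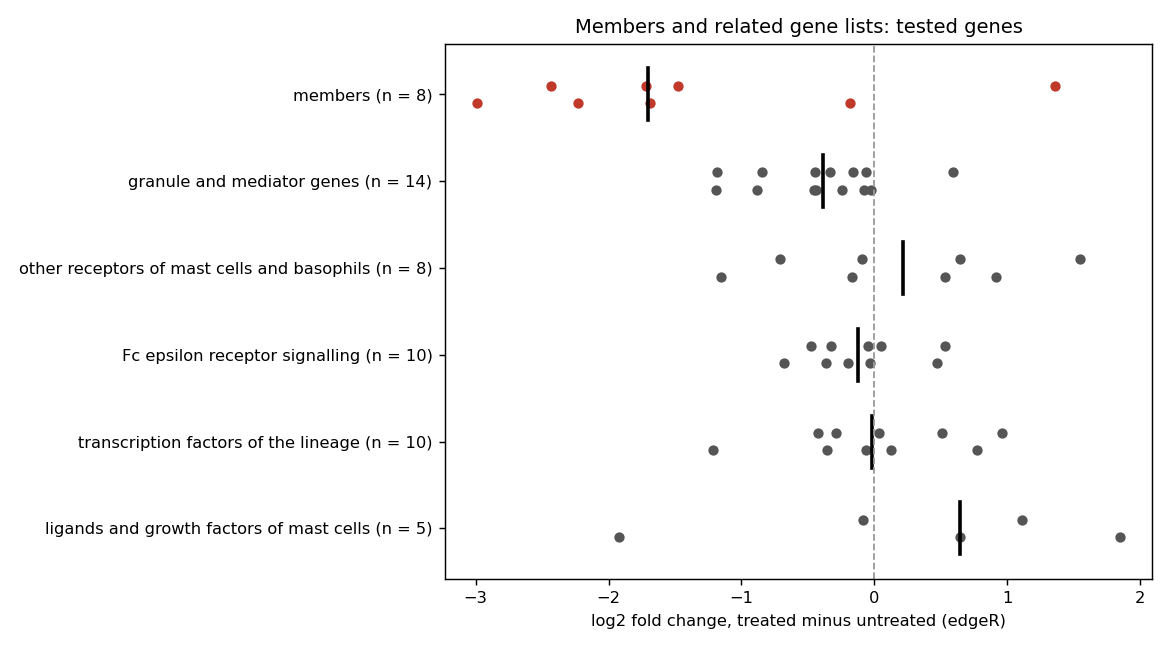
Log2 fold change, treated minus untreated, of the tested genes (horizontal axis), by list, with the median of each list as a black bar and the median over all tested genes as a dashed line. The tested members have a median of -1.70, the granule and mediator genes of -0.39 and the other lists between -0.13 and 0.64.

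The mean pattern of the tested members over the 6 libraries, centred on the log2 CPM scale, was -0.38, -0.42 and -1.03 in treated 1, 2 and 3, against 0.71, 0.85 and 0.28 in untreated 1, 2 and 3. Among 10878 other genes with a mean of at least 5 CPM, the 6 with the smallest root mean square difference from it were *Lamb3*, a laminin chain of basement membrane (0.0661), *Cd33* (0.111), *Tcf4* (0.117), *Thbs2* (0.118), *Lsp1* (0.119) and *Lrrn3* (0.150). *Lamb3* had 10.9, 10.5 and 6.09 CPM in treated tumours, against 25.0, 26.8 and 17.5 CPM in untreated tumours. These 6 are a description, and no other pattern was searched for comparison. The mean pattern pools the proteases with *Kit* and *Hdc*, both lowest in untreated 2, and so need not be that of any member.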

How the data were processed

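RNA was measured in 6 tumours, grouped by their titles. Per the labels' protocols, Trizol was used for extraction and a directional kit for the libraries. TopHat (version not given) and mm10 are named in the submitters' processing notes, while for the counting program, strand setting and annotation nothing was given in the sources used here. The authors deposited raw counts for each gene symbol, which were not rescaled before testing.

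Genes were filtered with filterByExpr (smallest count 10) in edgeR 4.0.16 under R 4.3.3, which left 12517 genes. Counts were scaled by TMM and compared with the quasi-likelihood test, 2-sided, with Benjamini-Hochberg adjustment and a threshold of 0.05. An SE is the log2 fold change divided by the root of F. No exact permutation test was run, because 3 against 3 libraries reach p = 0.1 at best. The floor given for a 0 covers counting error only, while the SDs and SEs include the spread between libraries. Alternatives were 2 other scalings, DESeq2 1.42.0, limma-voom (limma 3.58.1) with and without sample weights, 2 filters, the replicate number as a block, and leaving out libraries. Log2 CPM used a prior of 0.5 CPM.

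The members and lists were chosen with earlier results of these data known. Named are all members, in each list the 2 genes with the lowest p and at most 2 that lay the other way, list genes at 0 that define a cell type, and *Krt5* and *Krt14*. Endothelial, Schwann, adipocyte and muscle markers are given as sums only, fibroblast markers as sums with 3 collagen genes, and from the receptors and melanocyte, neutrophil and eosinophil markers some names were left out for length. 1 gene that the rule names is not reported here. Gene positions and lengths are from GENCODE M21 and promoters from RefSeq, both on mm10. GC content was matched for 96.4% of tested genes.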

Additional observations from a re-analysis of the deposited data

How the results depend on the processing

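The log2 fold changes of the 6 proteases stayed below 0 in all 96 member-by-alternative results, and 5 of them newly passed the threshold, all under DESeq2. The sign was largely fixed beforehand, since each treated value of these genes lay below each untreated one. The alternatives also reuse the same libraries, so the 96 results are not independent. Leaving out 1 library at a time gave -2.59 to -1.63 for *Mcpt4*, -1.81 to -1.13 for *Cma1*, -4.22 to -2.46 for *Mcpt2*, -2.89 to -1.95 for *Tpsab1*, -2.12 to -1.45 for *Tpsb2*, -2.02 to -1.15 for *Cpa3* and 0.96 to 2.57 for *Hdc*. *Kit* ran from -0.56 to 0.20, being above 0 without untreated 3. The count of members called was 0 in the main edgeR fit, 3 under DESeq2 and 2 under DESeq2 without untreated 2, and 0 in each edgeR fit without 1 library. The count of all genes called was 0 in the main fit, 57 under DESeq2, 273 under DESeq2 without untreated 2, 2 under limma-voom with sample weights and 1 by edgeR without untreated 1 and 2. Without 1 library it ran from 0 to 4, the 4 being found without untreated 3. The summed CPM ratio of the 10 genes, 0.338 with all libraries, ran from 0.282 to 0.429 without 1 library. It was 0.566 without untreated 1 and 2, the libraries rich in keratin RNA, a choice made after seeing the data. The cause of these moves was not tested. Correlations of same-numbered deviations were -0.183, -0.109 and 0.112, too few to decide whether the replicate numbers pair the samples. With the replicate block edgeR called 0 genes and 0 members, and *Mcpt2* had a log2 fold change of -3.33. The SE was smaller with the block for each tested member but *Kit*. For *Tpsab1* it was 0.35 with the block and 0.61 without, and for *Kit* 0.61 with and 0.50 without. *Fcer1a* and *Ms4a2* had 10 counts or fewer in each library, too few for the test at these depths.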
